A study of Mus musculus with 6 samples.

Results

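The genes described here are those of haemoglobin and of the red cell that carries it, read in mouse white adipose tissue as a view of the blood held in the tissue. The 8 listed genes were looked up by symbol in the table of 22040 Ensembl gene identifiers: the alpha globins Hba-a1 and Hba-a2, the beta globins Hbb-bs and Hbb-bt, Alas2, Slc4a1, Bpgm and Ahsp. Of these, 7 were matched to an identifier and all 7 passed the filter on low counts, as did 14093 genes in all. Ahsp, the alpha haemoglobin stabilising protein, was not matched and is not analysed here, nor are Hbb-b1 and Hbb-b2, the beta globin names of other mouse strains.

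The tissue was sampled in 3 control libraries (CTR), from mice given saline into the abdominal cavity, and in 3 libraries from mice given ginsenoside Rb1, a saponin of ginseng, by the same route at 14 mg/kg per day (Rb1). The series title places the work in the study of myostatin and of Rb1 against obesity. The labels name no genetic change in either group. Strain, sex, age, diet, depot, length of treatment and whether vessels were flushed before sampling are not stated in the labels. Libraries held 15440339 to 24501446 counts. Summed adipocyte markers took 19690.0 to 25590.0 CPM (counts scaled to each library's total) over the 6 libraries. Control replicate 2 stood apart: its summed skeletal muscle markers reached 39940.0 CPM. They were at 595.4 and 612.8 CPM in the other controls and at 81.9 to 285.0 CPM with Rb1, so every control lay above every Rb1 library.

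Haemoglobin is a tetramer of alpha and beta globin chains, each holding a haem group that binds oxygen. Globin and haem are made together by erythroid precursors in bone marrow and spleen, and mature mouse red cells have no nucleus but keep some of this RNA for a time after release, most of it in reticulocytes. Fat does not make red cells in the healthy adult, so globin RNA in a fat library is usually read as a measure of blood in the sample. In bulk tissue, fewer cells of a type and less RNA per cell cannot be told apart.

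The genes lie in separate places in the genome (GRCm38, GENCODE M21). Hba-a1 (ENSMUSG00000069919) and Hba-a2 (ENSMUSG00000069917) lie close together on chromosome 11, on the plus strand, at chr11:32283511-32284465 and chr11:32296489-32297298. Hbb-bt (ENSMUSG00000073940) at chr7:103812524-103813996 and Hbb-bs (ENSMUSG00000052305) at chr7:103826534-103828096 are neighbours on the minus strand. Alas2 (ENSMUSG00000025270) is at chrX:150547375-150570638 on the plus strand, and shares exon positions with Apex2 and Mir3620, so part of its count may belong to them. Slc4a1 (ENSMUSG00000006574) lies at chr11:102348824-102366203 on the minus strand, and Bpgm (ENSMUSG00000038871) at chr6:34476207-34505613 on the plus strand. All 7 are protein-coding.

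The globin copies resemble each other closely, which limits what a count for 1 copy means. Of all 50-base windows of the main Hba-a2 transcript (554 bases), 86.9% occur unchanged in that of Hba-a1 (699 bases). For Hbb-bs (628 bases), 65.8% of such windows occur in Hbb-bt (703 bases). The labels do not say to which copy a read that fits both was assigned. The split within each pair is therefore uncertain, and the sums of alpha and of beta globins are given beside the single genes.

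Sequence before the start of 5 of these genes is shown because the globins and Alas2 had alike profiles over the libraries and Bpgm had another. The bases come from RefSeq promoter windows (GRCm38.p6), cut so that they end before both the RefSeq and the GENCODE start. Of the 8 listed genes, 6 have such a window. Counted from the RefSeq start, the stretches end at -4 (Hba-a2), -169 (Hbb-bs), -74 (Hbb-bt), -43 (Alas2) and -150 (Bpgm). Matches of the windows that lie outside these stretches are not shown. They read 5′ to 3′ on the gene's strand. Capitals mark matches, on either strand, to AGATAA or TGATAA (the core bound by GATA factors), CCNCNCCC (bound by KLF1 and related factors), CCAAT and TATAA.
Hba-a2, chr11:32296369-32296488, plus strand: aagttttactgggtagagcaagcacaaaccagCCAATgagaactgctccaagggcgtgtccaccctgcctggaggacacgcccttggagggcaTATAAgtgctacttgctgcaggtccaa
Hbb-bs, chr7:103828097-103828178, minus strand: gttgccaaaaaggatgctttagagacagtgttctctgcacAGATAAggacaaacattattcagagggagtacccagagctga
Hbb-bt, chr7:103813997-103814116, minus strand: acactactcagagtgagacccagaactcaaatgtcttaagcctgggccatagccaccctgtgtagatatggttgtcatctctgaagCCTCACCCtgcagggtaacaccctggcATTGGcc
Alas2, chrX:150547255-150547374, plus strand: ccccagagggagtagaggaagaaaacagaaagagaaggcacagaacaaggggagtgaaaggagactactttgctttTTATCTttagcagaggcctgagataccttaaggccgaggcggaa
Bpgm, chr6:34476106-34476206, plus strand: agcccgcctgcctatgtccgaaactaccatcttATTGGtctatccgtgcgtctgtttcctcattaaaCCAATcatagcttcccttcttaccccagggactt

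The Hba-a2 stretch stands for both alpha genes, since their 300-base windows share an identical run of 297 bases. Over the whole windows, from 250 bases before to 50 after the RefSeq start, the GATA core was found in Hba-a1, Hba-a2, Hbb-bs and Alas2, and not in Hbb-bt or Bpgm. Of 32851 mouse windows, 18.6% hold it. CCNCNCCC was found in Hbb-bs, Hbb-bt, Alas2 and Bpgm, and in 49.5% of all windows. CCAAT, in 37.4% of all windows, was found in the 4 globins and Bpgm, and TATAA, in 24.9%, in the 4 globins and Alas2. These are matches of letters in a window and say nothing of binding.

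Mean alpha globin RNA was higher in the Rb1 libraries than in the controls, by a margin that did not pass the edgeR test. Hba-a1, the upstream and by far the more counted copy, was at 214, 124 and 145 CPM in control replicates 1, 2 and 3. It was at 231, 270.2 and 345 CPM in Rb1 replicates 1, 2 and 3. The groups did not overlap, although Rb1 replicate 1 lay only a little above control replicate 1. In edgeR the log2 fold change was 0.87 ± 0.24 (SE), a 1.82-fold difference with a 95% interval of 1.23 to 2.71, and the adjusted p was 0.269, which misses the threshold of 0.05.

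Hba-a2, the downstream copy, was at 12.0, 6.0 and 6.94 CPM in the controls and 11.3, 12.6 and 16.0 CPM with Rb1. Its control replicate 1 lay above Rb1 replicate 1, so the groups overlapped. Its log2 fold change was 0.74 ± 0.28 (SE), with an edgeR adjusted p of 0.401. It made up 4.42% to 5.29% of alpha globin counts in the 6 libraries, a share that varied little beside the 2.77-fold range of Hba-a1 CPM over the same libraries.

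Mean beta globin RNA was also higher with Rb1, with a wider spread, and neither copy passed the edgeR test. Hbb-bt, the more abundant copy, was at 94.0, 58.4 and 54.1 CPM in the controls and 99.0, 77.3 and 160.2 CPM with Rb1. Hbb-bs, its neighbour, was at 78.8, 42.8 and 38.2 CPM in the controls and 75.6, 48.9 and 108 CPM with Rb1. In both genes control replicate 1 lay above Rb1 replicate 2, and Rb1 replicate 3 was the highest library. The log2 fold change was 0.76 ± 0.31 (SE) for Hbb-bt, with an edgeR adjusted p of 0.425. For Hbb-bs it was 0.60 ± 0.35 (SE), with an edgeR adjusted p of 0.578. Rb1 replicate 3 weighed heavily on both: without it the log2 fold change was 0.38 for Hbb-bt and 0.25 for Hbb-bs. Hbb-bs made up 38.7% to 45.6% of the beta globin counts.

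**Figure D1:**
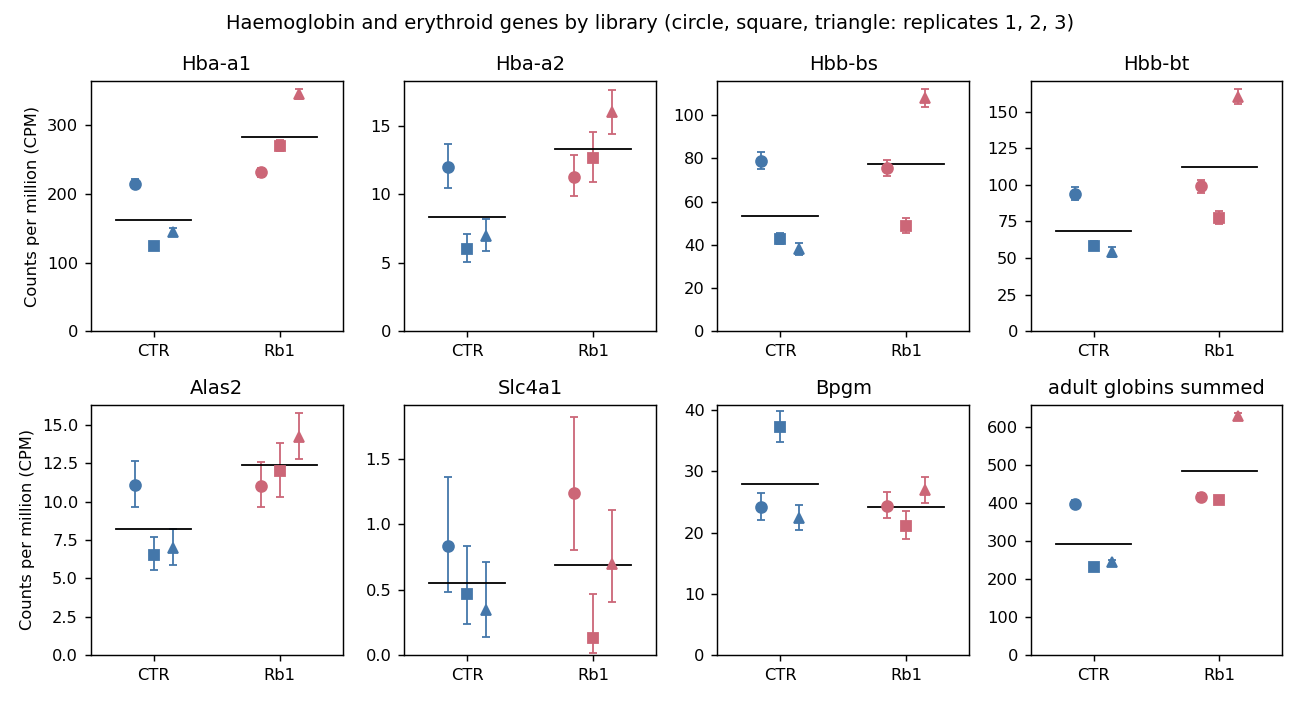
CPM (vertical axes, from 0) of the 7 matched genes and of the 4 adult globins summed, with 1 point per library, exact 95% counting intervals and a black line at each group's mean. Control replicate 1 lies close to or above the lowest Rb1 library in every globin gene, and Bpgm is highest in control replicate 2.

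Summed, the 4 adult globins took 0.0399%, 0.0232% and 0.0244% of all counts in the controls and 0.0417%, 0.0409% and 0.0629% with Rb1. The group means were 292 ± 93.3 CPM (SD, n = 3) and 485 ± 125 CPM (SD, n = 3), a 1.66-fold difference, with p = 0.1 in an exact two-sided permutation test, the smallest that 3 libraries against 3 can give. The groups did not overlap, but control replicate 1 (399 CPM, exact 95% interval 390.3 to 408) and Rb1 replicate 2 (409 CPM, 399 to 419) had counting intervals that overlapped. Fitted as 1 row in place of the 4 genes, the sum had a log2 fold change of 0.79 ± 0.26 (SE) and an edgeR adjusted p of 0.332. Without Rb1 replicate 3 the ratio of means was 1.42, and without control replicate 1 it was 2.04.

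Alas2 encodes the erythroid form of aminolevulinate synthase, the first enzyme of haem synthesis. Its levels were 11.1, 6.55 and 6.99 CPM in the controls and 11.0, 12.0 and 14.2 CPM with Rb1. As in the globins, control replicate 1 was the high control and Rb1 replicate 3 the highest library, and the groups overlapped by a margin within counting error. The log2 fold change was 0.66 ± 0.23 (SE), with an edgeR adjusted p of 0.358.

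Slc4a1 encodes band 3, the anion exchanger of the red cell membrane, and was close to the limit of detection. Its counts were 16, 11 and 7 in the controls and 25, 2 and 17 with Rb1. A count of 0 at these depths would allow up to 0.122 to 0.194 CPM, and Rb1 replicate 2 stood at 0.130 CPM. The log2 fold change was 0.39 ± 0.68 (SE), with an edgeR adjusted p of 0.877 and a 95% interval of the fold from 0.430 to 3.99, so at this depth neither a lower nor a higher level with Rb1 within that range could be told from no difference. Without Rb1 replicate 1 the log2 fold change turned to -0.22.

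Bpgm encodes bisphosphoglycerate mutase, which makes the 2,3-bisphosphoglycerate that lowers the oxygen affinity of haemoglobin, and it is also made in other tissues. It did not follow the globins. Its levels were 24.2, 37.3 and 22.4 CPM in the controls and 24.4, 21.1 and 26.9 CPM with Rb1. The highest value was in control replicate 2, the library rich in skeletal muscle RNA, where the globins were low. The log2 fold change was -0.17 ± 0.22 (SE), with an edgeR adjusted p of 0.826, and it turned to 0.10 without control replicate 2.

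Across the 7 genes, 6 had a log2 fold change above 0, beside a median of 0.01 over all tested genes. By edgeR 0 of the 7 passed an adjusted p of 0.05, as did 0.0071% of all tested genes (1 gene, Xiap). At an unadjusted p under 0.05, edgeR took 4 of the 7 (Hba-a1, Hba-a2, Hbb-bt and Alas2) and 1628 genes in all, 11.6% of those tested. DESeq2, run as an alternative, took Hba-a1 alone, with an adjusted p of 0.0240, where it took 0.548% of its genes as higher and 2.01% as lower with Rb1. That DESeq2 call was lost without control replicate 2 (adjusted p 0.238), control replicate 3 (0.0989), Rb1 replicate 2 (0.109) or Rb1 replicate 3 (0.248). It was kept without control replicate 1 (0.00247) or Rb1 replicate 1 (0.00407). Without control replicate 1, DESeq2 also took Hba-a2 (adjusted p 0.0215) and Alas2 (0.0345). Groups of CPM that did not overlap, higher with Rb1, were found in 1 of the 7 (Hba-a1) and in 5.48% of all tested genes. None of the 7 had groups that did not overlap in the lower direction, against 10.5% of all tested genes.

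**Figure D2:**
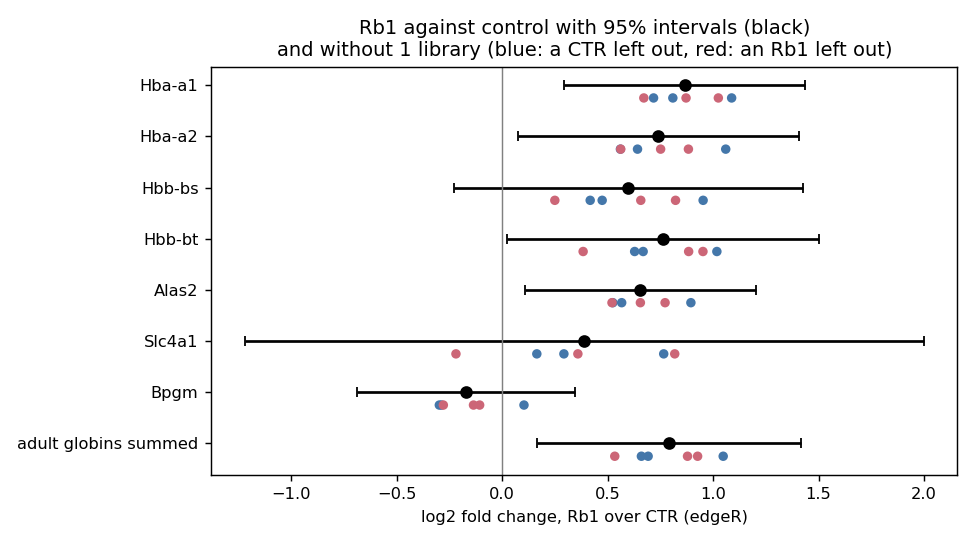
The log2 fold change of Rb1 over control (horizontal axis, edgeR) for each matched gene and for the 4 globins summed, as a black point with its 95% interval. Coloured points give the value with 1 library left out: those of the 4 globins, Alas2 and the sum stay above 0, whereas Slc4a1 and Bpgm cross it.

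To compare levels between genes, counts were divided by the length of each gene's main transcript. On this scale (CPM per kilobase of transcript) Hba-a1 was highest, from 178 to 494 over the 6 libraries, followed by Hbb-bt (76.9 to 228) and Hbb-bs (60.8 to 172). Hbb-bt and Hbb-bs overlapped, although Hbb-bt was higher within every library. Hba-a2 (10.8 to 28.8) and Bpgm (9.51 to 16.8) overlapped too, and Bpgm exceeded Hba-a2 in control replicate 2. Alas2 (3.22 to 6.99) was lower, and Slc4a1 (0.0285 to 0.272) was lowest. The deposited FPKM (fragments per kilobase of gene length, scaled to library size) rest on longer lengths for most of these genes. The 1193 bases for Hba-a1 and 5877 for Bpgm equal the sum of their annotated transcripts. FPKM were therefore not used to compare levels between these genes, but they ranked abundance within the wider lists.

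Within each library the erythroid genes kept partly fixed proportions. Alpha globin counts per Alas2 count were 20.4, 19.9 and 21.8 in the controls and 22.0, 23.6 and 25.3 with Rb1. This was the steadiest of the 3 ratios compared, with a 1.27-fold range over the libraries against 2.77-fold for Hba-a1 alone. Its groups did not overlap (p = 0.1, exact two-sided permutation test, the smallest possible), while the counting intervals of neighbouring libraries did. Other ratios were computed as well and were not in the adjustment over 3 ratios. The Hba-a2 share of alpha globin counts ranged 1.20-fold and the Hbb-bs share of beta globin counts 1.18-fold. Adult globin FPKM per Slc4a1 FPKM ranged 9.16-fold, on 2 to 25 Slc4a1 counts per library.

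Beta globin did not keep as steady a proportion to Alas2. Beta globin counts per Alas2 count were 15.6, 15.5 and 13.2 in the controls and 15.8, 10.5 and 18.8 with Rb1, with group means of 14.7 and 15.1 (p = 1, exact two-sided permutation test). The alpha to beta ratio per kilobase of transcript was 1.27, 1.25 and 1.60 in the controls and 1.35, 2.18 and 1.31 with Rb1. Rb1 replicate 2 had the highest ratio and control replicate 3 the next, and the others lay close together. In counts, the ratio was 2.24 in Rb1 replicate 2, with an exact 95% interval of 2.12 to 2.36, above the intervals of all other libraries. The Rb1 mean was 1.18 times the control mean (p = 0.5, exact two-sided permutation test), and 0.967 times without Rb1 replicate 2. Adjusted over the 3 ratios compared, the permutation p-values were 0.3 for alpha globin per Alas2, 1 for beta globin per Alas2 and 0.75 for alpha over beta globin.

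**Figure D3:**
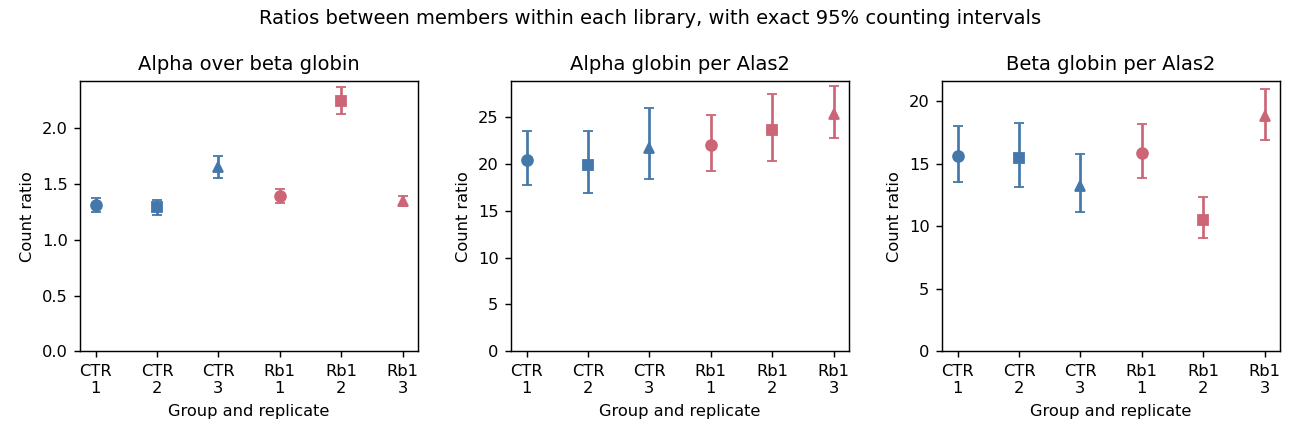
Ratios of counts between the genes within each of the 6 libraries (vertical axes, from 0) with exact 95% counting intervals: alpha over beta globin, alpha globin per Alas2 and beta globin per Alas2. Alpha globin per Alas2 stays between 19.9 and 25.3, while alpha over beta globin is 2.24 in Rb1 replicate 2 and at most 1.65 elsewhere.

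The likeness of the profiles was measured over the 6 libraries as the root mean square difference of centred log2 CPM from the summed globins. Each gene was scaled by edgeR's library factors, from 0.956 to 1.057, and the sum by library totals alone. The order of genes with close values, Alas2 and the globins among them, may therefore depend on the scaling. Hba-a2 came first of all 14093 tested genes by this measure, followed by Alas2 at rank 2 (0.128), Hbb-bt at rank 3 (0.135), Hba-a1 at rank 5 and Hbb-bs at rank 6. The globins are part of the sum, whereas Alas2 is not. Slc4a1 (rank 12229) and Bpgm (rank 10170) lay beyond the median gene, whose difference was 0.531. Slc4a1 had 2 to 25 counts per library, so counting error limits what its rank can show. Among genes outside the list the closest was Slc40a1, ferroportin, the iron exporter of macrophages and other cells, at 0.136. Its FPKM were 2.13, 1.12 and 1.19 in the controls and 2.52, 2.13 and 3.82 with Rb1. Its log2 fold change was 0.99 ± 0.31 (SE), with an edgeR adjusted p of 0.309 and a DESeq2 adjusted p of 0.0666. The next in likeness were Gdf9, Myadm, Tor2a, Tmem9b, Gsc, Noct, Ifitm6, Serpini1 and Scg3, at 0.204 to 0.242. Each likeness rests on 6 points, and all genes are read from the same libraries, which differ in depth and in muscle content.

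Several genes that define red cell precursors had few or no counts. The transcription factors Gata1 and Klf1, which drive globin genes in erythroid precursors, had 0 to 3 and 0 to 4 counts per library. Of the 6 embryonic and minor globins, 4 (Hba-x, Hbb-y, Hbb-bh1 and Hbb-bh2) had no count in any library, and Hbq1a and Hbq1b had 2 and 4 counts, in control replicate 3 only. The membrane genes Rhag (0 in all) and Epb42 (0 to 5) and the erythroid nuclear protein gene Hemgn (0 in all) were at or near 0 as well. Other factors and receptors of the same list, which further cell types express too, were well counted: Tal1 had 60 to 184 counts per library, Lmo2 389 to 776 and Kit 390 to 662. Epor, the erythropoietin receptor, was at 3.49 to 5.75 FPKM, with a log2 fold change of 0.37 and an edgeR adjusted p of 0.537.

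Wider lists of red cell genes had medians close to that of all tested genes (0.01), and in these 4 lists edgeR and DESeq2 called 0 genes at an adjusted p of 0.05. At an unadjusted p under 0.05, edgeR took 11.6% of all tested genes. In these lists it took 1 membrane gene (Sptb), 1 haem synthesis gene (Alas2), 0 enzyme genes and 3 factors and receptors (Lmo2, Tfrc, Tfr2). Of these, only Alas2 had a log2 fold change above 0. Those of Sptb, Lmo2, Tfrc and Tfr2 were -1.70, -0.44, -0.47 and -1.26. Of 22 red cell membrane and blood group genes, 13 were tested, 6 with a log2 fold change above 0 and 7 below, and their median was -0.04. The most abundant of them, Aqp1, the water channel of red cells and also of capillary endothelium, was at 165 to 301 FPKM, highest in Rb1 replicate 1. Sptb, Ank1, Tmod1 and Xk were highest in control replicate 2, the muscle-rich library. All 14 genes of haem synthesis and mitochondrial iron import were tested, 9 above 0 and 5 below, with a median of 0.01. Fech, the last enzyme of the pathway, was at 43.7 ± 1.43 FPKM (SD, n = 3) in the controls and 42.4 ± 1.79 FPKM (SD, n = 3) with Rb1. Alas1, the synthase of other tissues, was at 17.7 ± 0.410 FPKM (SD, n = 3) and 17.5 ± 1.52 FPKM (SD, n = 3).

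Red cell enzymes and reticulocyte genes numbered 16 tested, 10 above 0 and 6 below, with a median of 0.05. Cat, catalase, was at 293 to 372 FPKM. Gpx1, a glutathione peroxidase, varied widely within both groups, with 6817, 702 and 568 counts in the controls and 396, 3857 and 6608 with Rb1. The 9 tested erythroid factors and progenitor receptors comprised 4 above 0 and 5 below, with a median of -0.09. Tfrc, the transferrin receptor through which cells take up iron, was the only 1 of these 9 with lower, non-overlapping CPM with Rb1, beside 10.5% of all tested genes. It was at 3.01 ± 0.309 FPKM (SD, n = 3) in the controls against 2.10 ± 0.290 FPKM (SD, n = 3) with Rb1. Its log2 fold change was -0.47, with an edgeR adjusted p of 0.242. Of the non-erythroid globins, Cygb, cytoglobin, was at 59.1 to 89.1 FPKM with a log2 fold change of 0.06 and an edgeR adjusted p of 0.928.

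Among genes that clear haemoglobin and haem, more had a log2 fold change below 0 than above. Hp, haptoglobin, the plasma protein that binds free haemoglobin, is made by fat cells as well as liver. It stood at 1127, 738 and 980.3 FPKM in the controls and 331, 501 and 513 FPKM with Rb1. The groups did not overlap, and the log2 fold change was -1.02 ± 0.25 (SE), with an edgeR adjusted p of 0.23. DESeq2 gave an adjusted p of 0.00312, and of 0.0665 without control replicate 1, which ends that call. The call stayed when any other library was left out (DESeq2 adjusted p 0.00207 to 0.0275). Of the 14 tested clearance genes, 5 were above 0 and 9 below, with a median of -0.22. Of these 14, 6 had lower, non-overlapping CPM with Rb1 (Hp, Hmox1, Slc11a1, Slc48a1, Flvcr1 and Hfe), beside 10.5% of all tested genes. Hmox1, the haem oxygenase that breaks haem down, was at 34.4 ± 5.35 FPKM (SD, n = 3) and 27.5 ± 2.75 FPKM (SD, n = 3), with an edgeR adjusted p of 0.461. Cd163, the macrophage receptor for haemoglobin bound to haptoglobin, was at 12.6, 21.3 and 23.9 FPKM in the controls and 12.9, 29.6 and 23.2 FPKM with Rb1, with a log2 fold change of 0.23 and an edgeR adjusted p of 0.870.

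**Figure D4:**
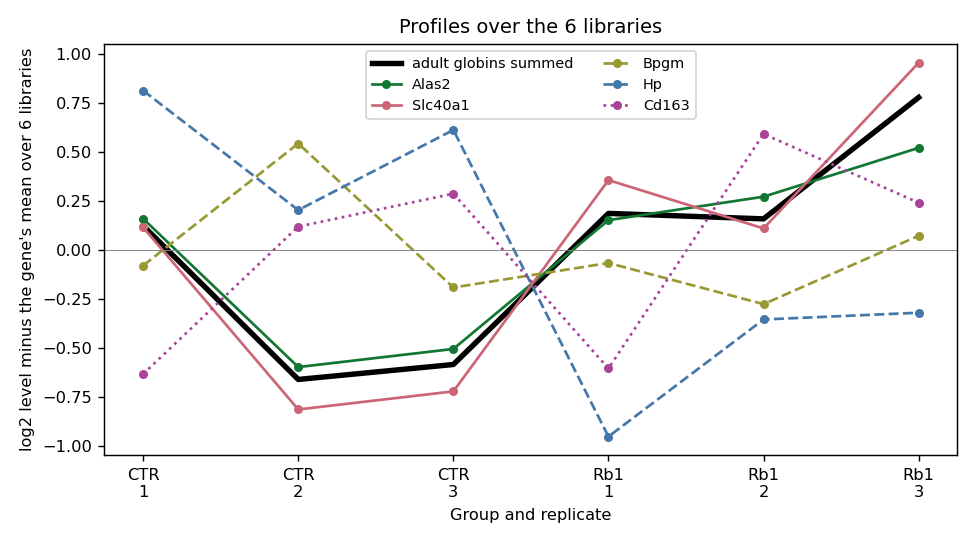
Level of each gene in the 6 libraries as log2 units above or below its own mean (vertical axis), for the 4 adult globins summed (black), Alas2, Slc40a1, Bpgm, Hp and Cd163, with lines that only join a gene's points. Alas2 and Slc40a1 run beside the globins, Bpgm peaks in control replicate 2, and Hp is lower in all 3 Rb1 libraries than in all 3 controls.

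Markers of other cells that a fat sample can hold were read in the same libraries. Platelet and megakaryocyte markers gave 5 tested genes above 0 and 2 below, with a median of 0.15 (0.26 without control replicate 2) and summed levels of 43.0 to 45.9 CPM in the controls and 38.7 to 54.3 CPM with Rb1. Among them Ppbp, a platelet chemokine, had 9, 7 and 3 counts in the controls and 22, 10 and 13 with Rb1, while Pf4, which macrophages also make, had a log2 fold change of -0.06. Neutrophil markers had 3 tested genes above 0 and 3 below, with a median of 0.51. Their summed level was 16.6 to 20.8 CPM in the controls and 24.3 to 30.9 CPM with Rb1. Without Mmp9, a matrix protease, the sums were 15.01, 14.7 and 9.91 CPM against 22.8, 12.2 and 9.75 CPM, and the groups overlapped. Prtn3 had 24, 23 and 26 counts in the controls and 92, 37 and 43 with Rb1 (log2 fold change 1.32, edgeR adjusted p 0.278). Of the 6 tested, 2 (Mmp9 and Prtn3) had higher, non-overlapping CPM with Rb1, beside 5.48% of all tested genes. For lower CPM it was 0, beside 10.5%. The defining S100a8 and S100a9 had log2 fold changes of -0.42 and 1.42 (edgeR adjusted p 0.874 and 0.524). The value of S100a9 rests on Rb1 replicate 1, with 86 counts against 12 to 17 in every other library. Ngp had 0 to 8 counts, and DESeq2 took Mmp9 as higher (adjusted p 0.0290, against 0.254 by edgeR).

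Lymphocyte markers had 3 of 10 tested genes above 0, a median of -0.39 (-0.09 without control replicate 2) and summed levels of 11.1 to 32.1 CPM in the controls and 7.77 to 24.3 CPM with Rb1. All 12 endothelial markers were above 0, with a median of 0.25, or 0.20 without control replicate 2. Their summed level was 1903.0 to 2219 CPM in the controls and 1893 to 3245 CPM with Rb1, with Rb1 replicate 1 highest. Pecam1 and Cdh5, which mark all endothelium, had log2 fold changes of 0.26 and 0.24 and edgeR adjusted p of 0.680 and 0.711. At an unadjusted p under 0.05, edgeR took 2 of the 12 (Kdr and Tek), where 11.6% of all tested genes passed. Their log2 fold changes were 0.56 and 0.38 (edgeR adjusted p 0.3875 and 0.269). Tek alone had higher, non-overlapping CPM with Rb1, beside 5.48% of all tested genes. The adipocyte markers had 6 of 10 above 0 and a median of 0.19. All 22 skeletal muscle markers were below 0, with a median of -6.20 that became -2.17 without control replicate 2. Of these 22, 20 had lower, non-overlapping CPM with Rb1, beside 10.5% of all tested genes. The most abundant adipocyte markers by mean FPKM, Adipoq, Fabp4 and Cfd, had log2 fold changes of -0.16, 0.27 and 0.96. DESeq2 took 1 gene of each list, the lipase gene Pnpla2 as higher (adjusted p 0.0494, against 0.309 by edgeR) and the myosin gene Myh2 as lower (adjusted p 0.0194, against 0.292 by edgeR). For most of the muscle markers, Ckm, Acta1 and Myh4 among them, DESeq2 gave no adjusted p, so they could not be called. The part of these cell types in the globin difference was not tested.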

How the data were processed

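RNA of mouse white adipose tissue was sequenced in 3 control and 3 Rb1 libraries. Per the submitters' processing notes, mm10 was the build and CASAVA 1.8 and TopHat2 2.0.6 were used. No source at hand names the counting tool, annotation release or strand setting. The authors deposited raw read counts per Ensembl gene, per the file headers, and FPKM, which the authors made with gene lengths longer than any single transcript for most globins. Of 22040 identifiers, 21933 were paired with a symbol. Counts were used for tests, CPM or FPKM for levels of a gene between libraries.

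The test was edgeR 4.0.16 in R 4.3.3 (quasi-likelihood, TMM, minimum count 10, minimum total 15, no covariates), fitted on all 14093 genes that passed, adjusted by Benjamini-Hochberg over them (threshold 0.05). DESeq2 1.42.0, other scalings, no filter, a replicate block and leaving out each library were alternatives. Single values had exact two-sided permutation tests. Intervals of single libraries are exact Clopper-Pearson 95% intervals and, with the floor of 3 counts, cover counting error only, since reads carry no molecular identifiers. In simulated data, 53% of 2-fold and 88% of 4-fold changes were recovered by edgeR (13963 genes run, 18 of 159 calls false). By DESeq2 the shares were 78% and 94% (14093 genes, 59 of 231 calls false). The simulation drew each gene separately from fitted dispersions and planted changes only in genes above a low mean CPM. It had no library set apart across many genes, as control replicate 2 is, so these rates may not hold for the real libraries. Whether the replicates of a group are separate mice is not stated, so the spread that p-values rest on may be technical. No pair of libraries agreed within sampling noise.

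The members, gene lists and tests were chosen with earlier results of these data known. The genes named are the listed genes, from each of 14 lists any gene past the edgeR threshold and otherwise the 3 most abundant and defining markers, and the 10 genes most like the summed globins. Some genes that the rule takes from the lists are not reported here. Mmp9, Pnpla2 and Myh2 (for DESeq2), Tal1, Lmo2, Kit, Sptb, Ank1, Tmod1, Xk, Tfrc, the clearance genes other than Hp, Hmox1 and Cd163, and the genes named for an unadjusted p were picked after their values were seen. Prtn3 was picked in the same way.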

Additional observations from a re-analysis of the deposited data

How the results depend on the processing

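Of the 96 values of the 7 genes and their globin sum under the edgeR alternatives and DESeq2 on all libraries, 93 kept their direction and side of the threshold, 1 passed it and 2 reversed. DESeq2 called 374 genes where edgeR called 1, and it took Hba-a1 at a log2 fold change of 0.87. Leaving out 1 library left edgeR with 1 to 4 called genes. The log2 fold change of Slc4a1 ranged from -0.22 to 0.82 when 1 library was left out, reversing without Rb1 replicate 1, and that of Bpgm from -0.30 to 0.10, reversing without control replicate 2. The ratio of alpha to beta globin, Rb1 over control, ranged from 0.967 to 1.28, reversing without Rb1 replicate 2. The cause was not tested. That ratio on the FPKM and count scales, the leaving out of libraries for it and in DESeq2, the neutrophil sum without Mmp9 and the alternatives for Hp were chosen after seeing the data. In DESeq2 without 1 library, 6 of 48 such values passed: Hba-a1, Hba-a2, Alas2 and the sum without control replicate 1, and Hba-a1 and the sum without Rb1 replicate 1. DESeq2 took the summed globins (adjusted p 0.0786 with all libraries) without control replicate 1 (0.00712) or Rb1 replicate 1 (0.0478). Same-numbered libraries did not deviate together (correlations 0.136, -0.109 and 0.018), so the numbers are not known to pair them; with a replicate block edgeR called 1 gene, Hba-a1 had a log2 fold change of 0.87 (edgeR adjusted p 0.371) and the globin sum 0.79 (edgeR adjusted p 0.415). Scaling by library totals alone moved the median gene from 0.01 to -0.03. Depth limits Slc4a1, Gata1, Klf1 and Epb42, which had 25 counts or fewer per library.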
